A study of Mus musculus with 26 samples.

Results

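Ribosome footprints of the mouse striatum were compared between a kinase-active and a kinase-dead form of transgenic LRRK2. The labels assign 4 of the 26 samples to the comparison, 2 footprinting samples from each transgenic genotype. Mice with G2019S LRRK2 are called GS LRRK2 TG, and mice with the kinase-dead double mutant G2019S/D1994A LRRK2 are called GS/DA LRRK2 TG. The transcripts listed for both genotypes were joined on their identifier, which gave 8576. The difference of a transcript is the log2 GS LRRK2 TG footprinting mean minus the log2 GS/DA LRRK2 TG footprinting mean, less the median of that value over all transcripts, so that a positive difference means more footprints with the kinase-active form. The 3 footprinting samples of non-transgenic (non-TG) control striatum did not enter the difference, and their values are given beside it where their libraries could be told apart.

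All mice were C57BL/6 and, by the labels, 3 months old. In both transgenic genotypes LRRK2 was expressed from a "Tet-off" transgene under the CaMKII-tTA driver, which is active in forebrain neurons, and the transgene was induced by taking the mice off doxycycline after weaning. Each genotype came from 1 transgenic line, so the kinase mutation and the line cannot be told apart. Each sample was a pool of caudate putamen from several mice of mixed sex, and the control mice were labelled non-transgenic.

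LRRK2 is a large protein with a GTPase and a kinase domain, and its best known substrates are Rab GTPases, the small switches of vesicle traffic. The G2019S substitution lies in the activation segment of the kinase, raises its activity and is among the most frequent causes of inherited Parkinson disease. The D1994A substitution replaces an aspartate of the catalytic site and abolishes the activity. A footprint is the stretch of mRNA that a ribosome shields from nuclease, so the number of footprints on a coding sequence follows both the amount of the mRNA and how densely ribosomes occupy it. The comparison addresses which of the footprint levels differ when the same mutant protein has or lacks kinase activity.

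The mouse Lrrk2 codons of both substitutions are shown to place the mutations. Both transgenes carry G2019S, and they differ by D1994A. The sequences are from the annotated coding sequence on the plus strand of chromosome 15 (mm9), with codons counted from 1 at the start codon and capitals marking the codon that is changed. The counts per transcript do not tell the alleles apart, and the sources used here do not give the species of the transgene, whose reads would have been counted only with few mismatches to the mouse sequence.
D1994A: attatttaccgtGACctgaagccccac
G2019S: attgcggactacGGGatcgcacagtac

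The deposited values are group means, and each library's own reads could be recovered for 99.7% of transcripts in GS LRRK2 TG and 98.7% in GS/DA LRRK2 TG. The recovered libraries carry no replicate number and are called deeper and shallower, and paired values are given in that order. The GS LRRK2 TG libraries held 8192181 and 7194834 footprints in coding sequences, and the GS/DA LRRK2 TG libraries 17725111 and 7504311. Of the controls, the libraries behind the mean deposited with GS/DA LRRK2 TG were recovered, with 13924492 and 8511907 footprints, while the control mean deposited with GS LRRK2 TG did not resolve into libraries. The median log2 ratio of the genotype means was -0.33, and library values of GS/DA LRRK2 TG and its controls are printed after scaling by 0.795, which removes it. Because the 2 tables were normalized separately, levels set side by side rest on this scaling.

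The libraries within a genotype differed from each other. The deeper GS LRRK2 TG library had the fewest footprints on genes of cortical projection neurons, which send axons to the striatum but have their cell bodies outside it, and the most on Y-linked genes. The summed footprints of the 4 measured of 10 cortical genes (Slc17a7, Tbr1, Neurod6 and Cux2) were 575 in the deeper and 2483 in the shallower GS LRRK2 TG library. In GS/DA LRRK2 TG they were 3445 in the deeper and 2198 in the shallower library. The control libraries held 1424 and 987, so the deeper GS LRRK2 TG library was the lowest and the deeper GS/DA LRRK2 TG library the highest of the 6 recovered. The most abundant of these genes was Slc17a7, the vesicular glutamate transporter of cortical neurons, and Neurod2, Emx1, Nrn1, Fezf2 and Rorb were among those not analysed here.

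Footprints of the 3 measured Y-linked genes summed to 1713 and 533 in the deeper and shallower GS LRRK2 TG libraries, to 918 and 526 in GS/DA LRRK2 TG, and to 1106 and 984 in the controls. Ddx3y, an RNA helicase, was the most abundant of them. The sum in the deeper GS LRRK2 TG library was the highest of the 6, and the part of the sex ratio of the pools in other differences was not tested. Across transcripts, the log2 ratio of the deeper to the shallower library in GS LRRK2 TG ran against that in GS/DA LRRK2 TG (Spearman's rho -0.646 over 8454 transcripts, which are not independent replicates). The same ratio in GS/DA LRRK2 TG ran with that of its controls (rho 0.741, 8379 transcripts). The SD of the log2 ratio between libraries was 0.366 in GS LRRK2 TG and 0.286 in GS/DA LRRK2 TG.

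**Figure D1:**
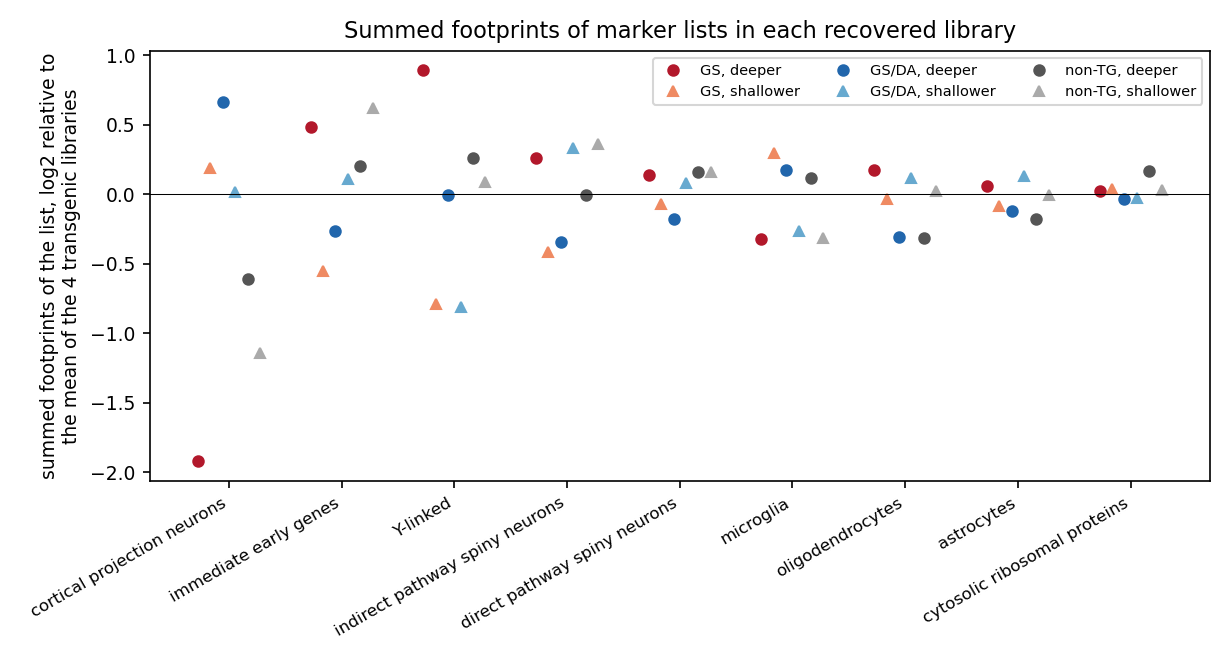
Summed footprints of 9 marker and gene lists (horizontal axis) in each recovered library, as log2 relative to the mean of the 4 transgenic libraries (vertical axis); circles are deeper and triangles shallower libraries, colored by genotype. The deeper GS LRRK2 TG library is lowest for cortical projection neurons (575) and highest for Y-linked genes (1713), while cytosolic ribosomal proteins span 168045 to 193179.

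Lrrk2 itself was examined first, since both genotypes carry the transgene. The tables list it as uc007xhz.1, and the gene spans 91503606 to 91646551 on chromosome 15 (mm9). Lrrk2 footprints were 3320.5 and 7052 in the deeper and shallower GS LRRK2 TG libraries and 5775 and 3788 in those of GS/DA LRRK2 TG. The recovered control libraries held 1149 and 973, below each of the transgenic libraries, whereas the transgenic genotypes overlapped. The means were 5186 ± 2639 (SD, n = 2) in GS LRRK2 TG and 4781 ± 1405 (SD, n = 2) in GS/DA LRRK2 TG, a difference of 0.12. In the limma fit of the 4 libraries the log2 difference of Lrrk2 was 0.05 ± 0.37 (SE), with an adjusted p of 1.00 after Benjamini-Hochberg adjustment. Its sign turned to -0.49 without the shallower GS LRRK2 TG library and to -0.25 without the shallower GS/DA LRRK2 TG library.

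Relative to the recovered controls, the Lrrk2 mean was 4.89-fold higher in GS LRRK2 TG and 4.51-fold higher in GS/DA LRRK2 TG. The control mean deposited with GS LRRK2 TG was larger, 2524 against 1061 for the other, so the fold over its own control was 2.06 in GS LRRK2 TG. That control mean did not resolve into libraries. It differed from the other control mean gene by gene and not by a constant factor, with more Lrrk2 but less Ttr (3944 against 7252). The control means therefore do not rest on the same set of libraries. The cause of the higher Lrrk2 level in the control mean deposited with GS LRRK2 TG was not tested. With each genotype taken relative to its own control mean, the difference between genotypes was -1.14. The RNA-Seq difference of Lrrk2, centered like that of the footprints, was -0.37, with less Lrrk2 RNA in GS LRRK2 TG.

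Most transcripts carried closely similar footprint levels in both genotypes. The difference lay within 0.5 of 0 for 99.3% of the 8576 transcripts, with 34 above 0.5 and 27 below -0.5. No transcript passed the test. Limma with Benjamini-Hochberg adjustment called 0 of 8454 transcripts higher (0%) and 0 lower (0%) in GS LRRK2 TG at an adjusted p under 0.05, and 39 had an unadjusted p under 0.05. Limma without the mean-variance trend gave 0 with 58 at that unadjusted level, and limma voom on the recovered reads 0 with 44. The median standard error of a transcript was 0.166, larger than the SD of 0.144 of the fitted differences over all transcripts.

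The number of calls depended on single libraries and on how libraries were paired. Without the deeper GS LRRK2 TG library limma called 25 transcripts, 15 higher and 10 lower, and without the shallower one 58, 22 higher and 36 lower, with the lone library assumed to vary like the others. Without either GS/DA LRRK2 TG library it called 0. With the deeper library of one genotype paired to the shallower of the other, a pairing read from the values and not from the labels, limma called 28 higher (0.331%) and 42 lower (0.497%). It called 0 once the recovered control libraries were added to that fit. Because the pairing was chosen on the values that the fit then tests, its calls and p-values are no independent support for a difference.

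The libraries of the genotypes did not overlap for 849 transcripts that were higher (10%) and 899 that were lower (10.6%) in GS LRRK2 TG, of 8454. These shares are the background for the counts of gene groups below. From the transcripts with no overlap and both deposited means, before scaling, at least 500, the 12 highest and the 12 lowest differences are described next. None passed the test without a block, their choice fixes their direction, and their standard errors ran from 0.13 to 0.31. With the deeper libraries paired to the shallower, the 70 calls included Il33, Srsf5, Hnrpdl and Mt2 of the highest and Alad, Bsn, Islr2, Coro1a, Dkk3, Efhd2, Gm1337, Fam131a and Sgsm1 of the lowest, and none of these was called once control libraries were added.

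The transcript with the highest difference, Il33, encodes a nuclear cytokine that glia release on injury and had 919 and 1174 footprints in the deeper and shallower GS LRRK2 TG libraries and 813 and 419.5 in GS/DA LRRK2 TG. The difference was 0.76, and the control libraries, at 841 and 474, were spread as widely as those of GS/DA LRRK2 TG. Srsf5, a splicing factor of the SR family, had 2052 and 3389 against 1588 and 1881 footprints, a difference of 0.65. The shallower GS LRRK2 TG library alone stood far above the others, with 1883 and 2094 in the controls. Efhd1, a calcium-binding protein of mitochondria, had 535 and 530.0 against 385 and 413, a difference of 0.42 with tight replicates. Its control libraries held 408 and 472, both below GS LRRK2 TG.

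Denr, a factor that lets ribosomes restart after upstream reading frames, had 526 and 530.0 footprints in GS LRRK2 TG and 408 and 411 in GS/DA LRRK2 TG. The controls of Denr, at 482 and 464, lay between the genotypes. The Denr difference was 0.37, while its RNA-Seq difference was -0.81. Hnrpdl, an RNA-binding protein of the nucleus, had 2393 and 3057 against 2021 and 2173, a difference of 0.38. The controls of Hnrpdl, at 2798 and 2832, lay with GS LRRK2 TG. Mt2, a metallothionein that binds zinc and copper, had 2704 and 2556 against 2331 and 1739.9, a difference of 0.37. Bcas1, a protein of myelinating oligodendrocytes, had a difference of 0.40, and Plxnd1, a semaphorin receptor, one of 0.36. The others were Btg3 (0.37), Arhgef10 (0.36), Gpatch8 (0.35) and the chemokine Ccl27a (0.33).

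Among the transcripts lowest with the kinase-active form, Alad had the largest difference. Alad encodes an enzyme of heme synthesis, and its footprints were 488 and 622 in the deeper and shallower GS LRRK2 TG libraries and 1011 and 1142 in GS/DA LRRK2 TG. The controls, at 1109.6 and 1164, lay with GS/DA LRRK2 TG, so GS LRRK2 TG stood apart from all 4 other libraries. The Alad difference was -0.96. The limma estimate was -0.95 ± 0.17 (SE), with an adjusted p of 1.00 by the Benjamini-Hochberg method without a block. With the deeper libraries paired to the shallower it was 2.36e-12, and 0.149 with control libraries added to that fit. That pairing was read from the same values, so 2.36e-12 is no independent support for a difference.

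Bsn, the presynaptic scaffold Bassoon, had 1582 and 2076 footprints in GS LRRK2 TG and 2529.6 and 2274 in GS/DA LRRK2 TG, a difference of -0.39. The Bsn controls, at 2055 and 1995, fell among the GS LRRK2 TG values. Islr2, a membrane protein of growing axons, had 642 and 834 against 1018 and 979, a difference of -0.43. Both controls of Islr2 (660.4 and 568) were at the level of GS LRRK2 TG or below it. Coro1a, a coronin that binds actin, had 1279.5 and 1343 against 1655 and 1735, a difference of -0.37 with close replicates. Dkk3, a secreted relative of Wnt inhibitors, had 716 and 1033 against 1206 and 1130, a difference of -0.42. Efhd2, a calcium-binding regulator of actin, had 477 and 792 against 898 and 802, also a difference of -0.42. Dkk3, Efhd2, Bsn and Fam131a were each lowest in the deeper GS LRRK2 TG and highest in the deeper GS/DA LRRK2 TG library, as were the summed cortical genes. Among the transgenic libraries alone, Islr2 and Sgsm1 were also lowest and highest in these. The part of cortical tissue in any of these transcripts was not tested. Chd5, a chromatin remodeler of neurons, differed by -0.34 and Exoc8, a subunit of the exocyst, by -0.33. The rest were Gm1337 (-0.44), Fam131a (-0.39), Sgsm1 (-0.38) and Irgq (-0.36).

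**Figure D2:**
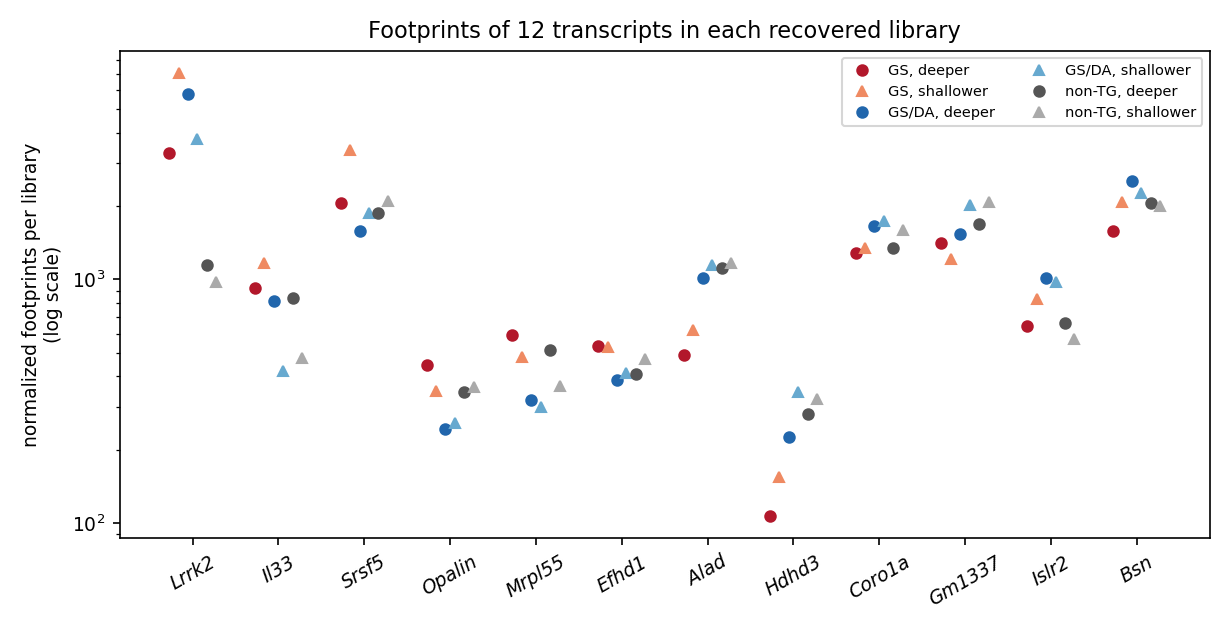
Normalized footprints per library (vertical axis, log scale) of 12 transcripts (horizontal axis), with circles for deeper and triangles for shallower libraries, colored by genotype. Alad lies at 488 and 622 in GS LRRK2 TG and at 1011 to 1164 in the other 4 libraries, whereas the transgenic genotypes overlap for Lrrk2.

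The RNA-Seq means of the same genotypes were set beside the footprints. Of the 12 highest transcripts, 8 had an RNA-Seq difference of the same sign, and of the 12 lowest, 11. Over all transcripts the signs were the same for 48.6%, and the rho of the differences was 0.0111. For Alad the RNA-Seq difference was -0.75 and for Efhd1 0.42, each near its footprint difference. For Islr2 (-0.01) and Coro1a (-0.01) the RNA-Seq difference, centered like that of the footprints, was near 0. The SD of the RNA-Seq difference was 0.319, more than for footprints, and the RNA-Seq difference followed the GC content of the coding sequence with a rho of 0.565, against -0.325 for the footprint difference. The part of base composition in these differences was not tested.

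The largest differences at any level, described after their values were seen, included further transcripts whose RNA-Seq moved alike. Mrpl55, a protein of the mitochondrial ribosome, had 591 and 482 footprints in GS LRRK2 TG, 319 and 299 in GS/DA LRRK2 TG, and 515 and 365 in the controls. Mrpl55 was higher in GS LRRK2 TG by 0.79, with an RNA-Seq difference of 1.07. Ttr, the thyroxine carrier made by the choroid plexus, had footprint means of 723 in GS LRRK2 TG and 2503 in GS/DA LRRK2 TG, a difference of -1.79, and an RNA-Seq difference of -1.68. Its control means were 3944 and 7252 in the same order, both above the transgenic means, and the Ttr libraries of GS/DA LRRK2 TG were not recovered. Among the 10 highest and 10 lowest differences, 17 had an RNA-Seq difference of the same sign.

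**Figure D3:**
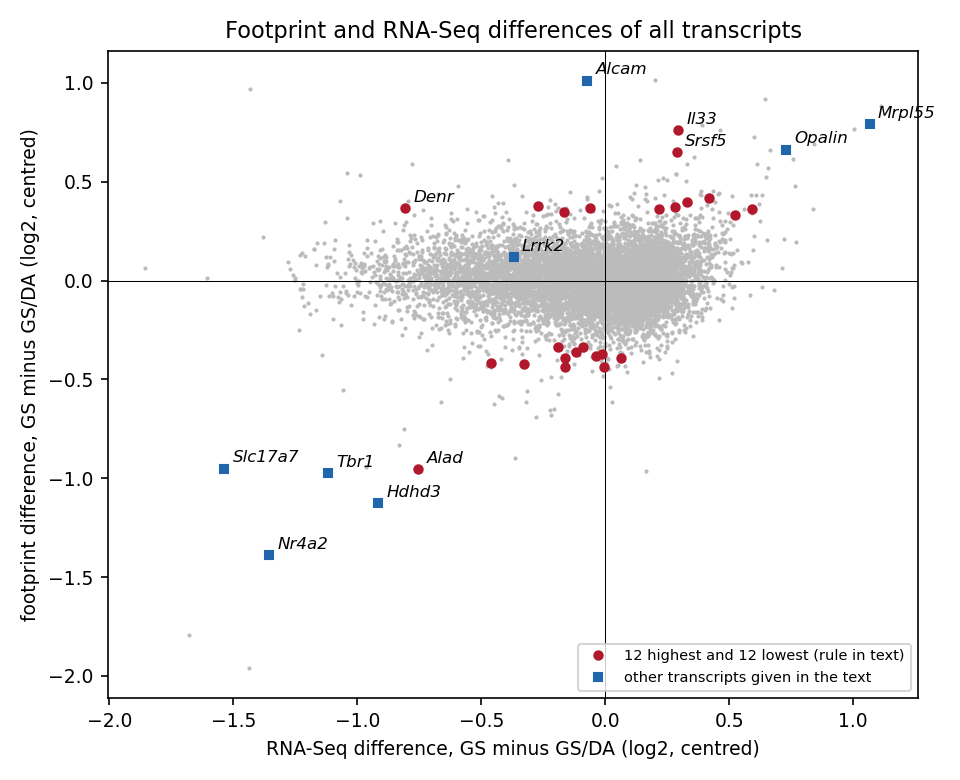
Footprint difference (vertical axis) against RNA-Seq difference (horizontal axis), both GS LRRK2 TG minus GS/DA LRRK2 TG on a centered log2 scale, with a gray point for each of 8576 transcripts. Red circles are the 12 highest and 12 lowest transcripts and blue squares others given in the text; Hdhd3 and Alad are low and Mrpl55 high in both assays, while the rho over all transcripts is 0.0111.

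Gene groups are described by how many of their recovered members did not overlap between genotypes, to be read against 10% higher and 10.6% lower over all transcripts, and by the median difference of all measured members, where that of all transcripts is 0. No group was tested as such, so a median near 0 does not show that a group was alike in both genotypes. The range of each median with 1 of the 4 libraries left out in turn, over recovered members, is given beside it. In tissue, fewer cells of a type and less RNA per cell cannot be told apart.

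Genes of the cortical projection neurons had the lowest median, -0.95 over 4 transcripts. Cux2 did not share the shift, with a difference of -0.045. Slc17a7 had 258 and 1425 footprints in the deeper and shallower GS LRRK2 TG libraries and 1999.7 and 1254 in GS/DA LRRK2 TG, so the genotypes overlapped. Tbr1, a transcription factor of deep cortical layers, had 143 and 703 against 1049.7 and 610.1, again with overlap. Neurod6, a neuronal transcription factor, did not overlap, with 30.4 and 174 against 212 and 182. With the deeper libraries paired to the shallower, a pairing read from the values, limma called Slc17a7, Tbr1 and Neurod6 lower. None of these was called once control libraries were added. The median was -0.18 without the deeper GS LRRK2 TG library and -2.40 without the shallower one, the ends of the range. The RNA-Seq median of the group was -1.04, and the control means of the 2 tables differed at these genes by a median of 0.52, higher in the table of GS LRRK2 TG. The part of cortical tissue in other differences was not tested.

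Y-linked genes had a median of 0.59 over 3 transcripts and overlap in each. Uty had 402 and 108 footprints in GS LRRK2 TG and 168 and 91.6 in GS/DA LRRK2 TG. The deeper GS LRRK2 TG library alone was high. Without it the median turned to -0.45, and without the shallower GS LRRK2 TG library it was 1.14. The RNA-Seq median of these genes had the opposite sign, -1.04, although by the study's methods each lysate was divided between the assays. Whether the RNA-Seq and footprint means came from matching pools was not tested.

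Spiny projection neurons, the principal cells of the striatum, had medians of -0.01 for the direct and -0.01 for the indirect pathway. These moved both ways with 1 library left out, from -0.23 (without the deeper GS LRRK2 TG) to 0.21 (without either shallower library) for the direct pathway. For the indirect pathway they ran from -0.40 (without the deeper GS LRRK2 TG) to 0.25 (without the shallower GS/DA LRRK2 TG). The summed footprints of the 6 direct-pathway genes were 10354 and 8924 in GS LRRK2 TG and 8304 and 9944 in GS/DA LRRK2 TG. Tac1, the precursor of substance P, was the 1 member that did not overlap, with 3638 and 3790.2 against 3308 and 3099.9. Among 4 recovered genes of the indirect pathway none was separate, and Adora2a, the adenosine receptor of these cells, differed by -0.01. In the dopamine and cAMP signalling group 2 of 29 recovered members were higher and 1 lower, with a median of 0.02 (range -0.07 to 0.07). Rap1gap, which switches off Rap1, was higher by 0.20, and Gnb5, a G protein beta subunit, lower with -0.19.

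Immediate early genes, which neurons switch on with activity, differed between the libraries of a genotype. Their 20 members summed to 30116 and 14637 footprints in the deeper and shallower GS LRRK2 TG libraries, and to 17935 and 23259.6 in GS/DA LRRK2 TG. Egr1, a zinc finger factor and the most abundant of them, had 10596 and 3099.7 against 4008 and 7158, with the GS LRRK2 TG libraries at both ends. Nr4a3, an orphan nuclear receptor, was likewise spread, with 1139 and 114 against 316 and 580.4. The median was 0.07, with 1 member higher (Junb, 0.24) and 2 lower (Dusp1 and Nr4a2). It turned to -0.48 without the deeper GS LRRK2 TG library and was 0.25 without the shallower one. Nr4a2, the nuclear receptor Nurr1, had 75.3 and 274 footprints in GS LRRK2 TG and 560.4 and 354 in GS/DA LRRK2 TG, lowest in the deeper GS LRRK2 TG and highest in the deeper GS/DA LRRK2 TG library, as for Slc17a7. The Nr4a2 difference was -1.39 and its RNA-Seq difference -1.36, and the part of cortical tissue in it was not tested.

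Genes of oligodendrocytes, the cells that make myelin, had the highest median of the glial groups, 0.20 over 12 transcripts, with 4 of 10 recovered members higher and 0 lower. Opalin, a membrane protein of these cells, had 445 and 348 footprints in GS LRRK2 TG and 243 and 259 in GS/DA LRRK2 TG. The genotypes did not overlap, and the controls (345 and 363) lay near the lower GS LRRK2 TG value. The Opalin difference was 0.66, with a limma estimate of 0.63 ± 0.18 (SE). Its limma p, adjusted by the Benjamini-Hochberg method, was 1.00 without a block. It was 0.00328 with the deeper libraries paired to the shallower and 0.389 with control libraries added. That pairing was read from the values, so 0.00328 is no independent support for a difference. Aspa, which breaks down N-acetylaspartate, had 634 and 824 against 626 and 558, a difference of 0.30. Mobp, a myelin protein, differed by 0.35 with overlap, and Ermn and Mal were the other separate members. The summed footprints of 9 members were 18375 and 15935 in GS LRRK2 TG and 13144 and 17642 in GS/DA LRRK2 TG, so the sums overlapped. The median was 0.09 without the deeper and 0.38 without the shallower GS/DA LRRK2 TG library. The RNA-Seq median of the group was 0.23, so that footprints relative to RNA had a median of 0.00.

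The other cell types had medians between -0.16 and 0.06, and each of these changed sign with at least 1 library left out. Astrocyte genes had a median of 0.02 (range -0.11 to 0.11) with 0 of 9 recovered members separate, and microglial genes 0.02 (range -0.23 to 0.25) with 1 of 10 higher (Itgam, 0.15). Microglial footprints summed to 4622 and 7111 in GS LRRK2 TG and 6536 and 4822 in GS/DA LRRK2 TG. Interneuron genes had a median of 0.06 (range -0.12 to 0.15), with 1 of 7 higher (Npy, 0.06). Pvalb, a calcium-binding protein of fast-spiking interneurons, had 386 and 1099 against 507 and 432, where 1 library gave the difference of 0.66. The 2 endothelial genes had a median of 0.05 (range -0.17 to 0.24) and the 3 globin transcripts -0.03 (range -0.35 to 0.37), each with 0 separate members. The 3 choroid plexus genes had a median of -0.16 (range -0.30 to 0.04), and -0.95 with deposited means of at least 500. The globin transcripts share sequence with near-identical copies, so their values are uncertain.

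Cytosolic ribosomal proteins, the parts of the ribosome itself, had 13 of 75 recovered members higher and 0 lower. Of their differences 59 were above and 16 below 0, with a median of 0.08. The median was 0.04 without the shallower GS LRRK2 TG library and 0.06 without each of the others. Rpl21 of the large subunit had 3043 and 2562 footprints in GS LRRK2 TG and 2522 and 2283 in GS/DA LRRK2 TG, a difference of 0.22. The genotypes of Rpl21 were just separate. Rps7 of the small subunit had 2968 and 2319.8 against 2113 and 2389.6, a difference of 0.23 with overlap. Rps15, a small-subunit protein that LRRK2 phosphorylates, had 2718 and 2529 against 2553 and 2824, a difference of -0.04. The summed footprints were 174852 and 176871 in GS LRRK2 TG, 168045 and 169042 in GS/DA LRRK2 TG, and 193179 and 176379 in the controls. The RNA-Seq median of the group was 0.22, so that footprints relative to RNA had a median of -0.16.

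Of 36 recovered initiation factors and helicases 1 was higher and 4 were lower, with a median of -0.02 (range -0.03 to -0.01). Eif4g1, the scaffold of the cap-binding complex, had 2994 and 2521 footprints in GS LRRK2 TG and 3044 and 3116 in GS/DA LRRK2 TG, a difference of -0.16. Eif2b1, a subunit of the exchange factor that recharges eIF2, was lower as well, with -0.18. Elongation factors had a median of -0.06 (range -0.10 to -0.01), and 1 of 9 was lower, Tsfm of mitochondria (-0.20). In the integrated stress response, which slows initiation when eIF2 is phosphorylated, 1 of 17 members was higher (Wars, 0.15) and 1 lower (Aars, -0.17), both of which load tRNAs, and the median was -0.04 (range -0.06 to 0.06). Atf4, the transcription factor at the center of this response, had 193 and 124 footprints in GS LRRK2 TG and 132 and 196 in GS/DA LRRK2 TG. The Atf4 genotypes overlapped, with a difference of -0.05 and a standard error of 0.28.

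The Rab GTPases that LRRK2 phosphorylates had a median of 0.08 (range 0.04 to 0.13), and 1 of 9 recovered members was higher. Rab3b, a Rab of synaptic vesicles, had 2538 and 2367 footprints in GS LRRK2 TG and 2090.4 and 2242 in GS/DA LRRK2 TG, a difference of 0.18. Rab10, which recruits motor adaptors to vesicles, had 2276 and 1966 against 1886 and 2076, with overlap. Among 23 recovered LRRK2 partners and Parkinson disease genes 3 were higher and 1 lower, with a median of -0.05 (range -0.20 to 0.03). Rgs2, a regulator of G protein signalling, had 3323 and 2630.3 against 2384 and 2571, a difference of 0.26. Ywhaq, a 14-3-3 protein, differed by 0.12, and Pink1, a mitochondrial kinase, by -0.13.

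Of 37 recovered chaperones 2 were higher and 6 lower, with a median of -0.08 (range -0.10 to -0.03). Hspa5, the main chaperone of the endoplasmic reticulum, had 5979 and 4585 footprints in GS LRRK2 TG and 6073 and 6293 in GS/DA LRRK2 TG, and was lower with -0.23. Sdf2l1, another protein of the folding machinery there, had 153 and 103 against 186 and 177, a difference of -0.50. Hspa1a differed by -0.65, where the deeper GS/DA LRRK2 TG library was high (558 against 283 in the shallower), and its reads are uncertain because Hspa1b is a near-identical copy. Of 19 transcripts of glycolytic enzymes 18 had differences below 0, 4 of them for Gapdh, whose copies are near-identical, and 3 of 11 recovered were lower. Eno2, the neuronal enolase, had 20071 and 23825 against 25265 and 24736, a difference of -0.19. Hk1, the hexokinase of brain, differed by -0.28 with overlap. The glycolytic median was -0.10, and it was -0.01 without the deeper and -0.31 without the shallower GS LRRK2 TG library.

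Voltage-gated calcium channels had a median of -0.00 (range -0.18 to 0.14) and 2 of 14 higher and 0 lower, among them Cacnb2, an auxiliary subunit, with 1227 and 1236 against 945 and 1121 footprints. Calcium pumps, exchangers and store channels had a median of -0.03 (range -0.20 to 0.10), with 1 of 16 higher and 1 lower, and 13 of 17 differences below 0. Slc8a1, a sodium-calcium exchanger, had 357 and 659 against 753 and 614, a difference of -0.43 with overlap. Synaptic vesicle and release proteins had a median of -0.05 (range -0.07 to -0.01), with 1 of 33 higher and 2 lower, among them Bsn, and 26 of 37 differences below 0. Postsynaptic glutamate and GABA receptors had a median of 0.02 (range -0.03 to 0.13), with 3 of 34 higher and 1 lower. Gabra2, a GABA-A receptor subunit, had 1892 and 1875 against 1652 and 1492, a difference of 0.26.

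Lysosomal enzymes and the V-ATPase had a median of -0.01 (range -0.10 to 0.10), with 4 of 37 higher and 2 lower, and Atp6v0e, a proton pump subunit, was highest with 0.33. Mitochondrial ribosomal proteins had a median of 0.02 (range -0.08 to 0.09), with 8 of 62 higher and 6 lower. The respiratory chain and ATP synthase had a median of 0.03 (range -0.11 to 0.10), with 7 of 69 higher and 4 lower, from Atp5e of the ATP synthase (0.23) to Cyc1 of complex III (-0.24). Proteasome subunits had a median of -0.01 (range -0.11 to 0.07), with 0 of 30 higher and 3 lower.

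**Figure D4:**
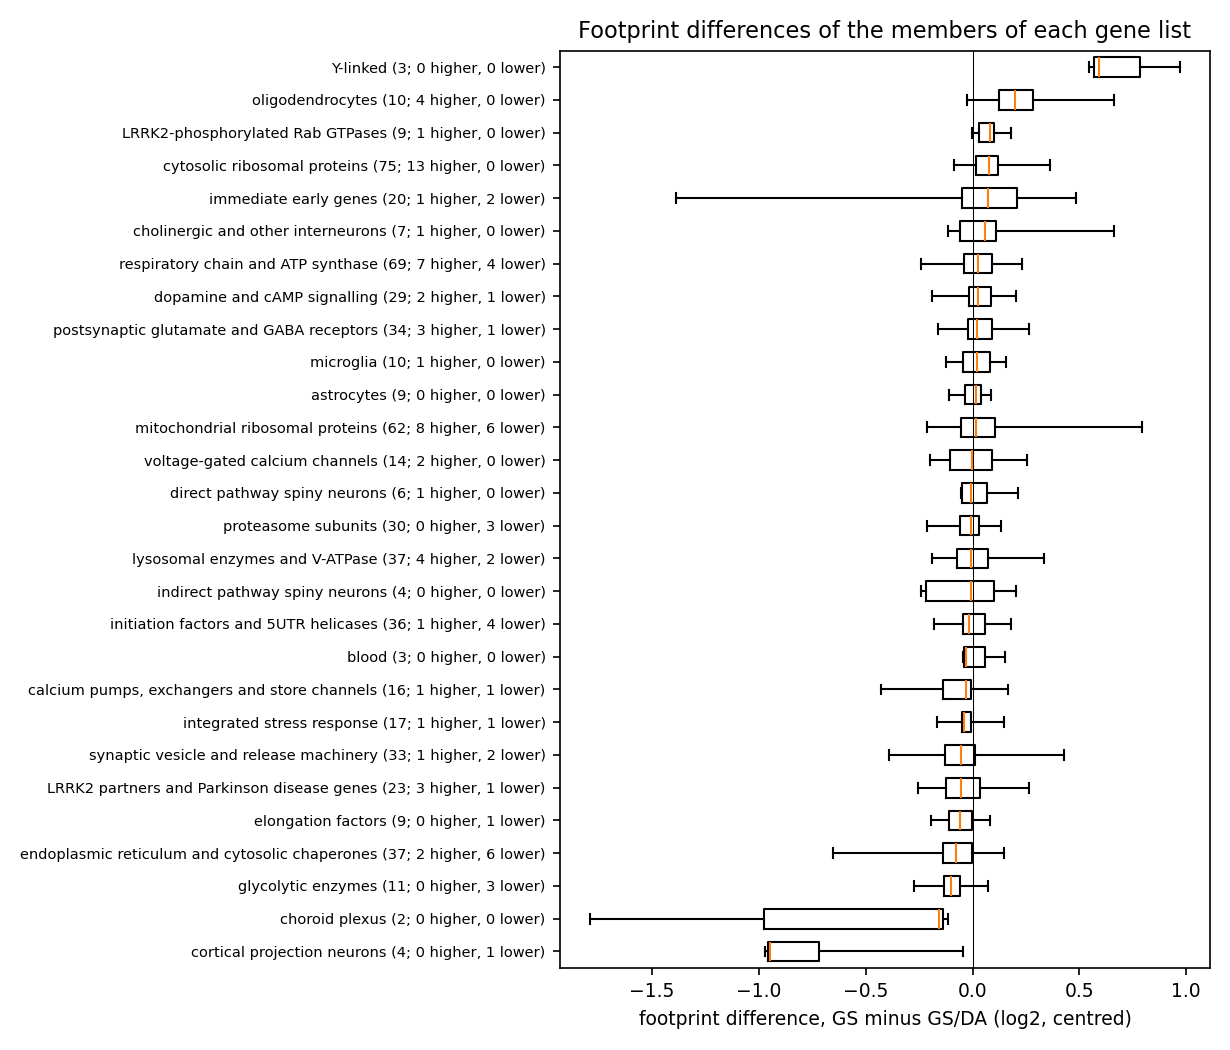
Footprint difference (horizontal axis, centered log2, GS LRRK2 TG minus GS/DA LRRK2 TG) of the members of each list with at least 3 measured members. Boxes span the quartiles with the median as a line, whiskers reach the lowest and highest member, and brackets give the recovered members and those whose libraries did not overlap; cortical projection neurons lie lowest (median -0.95) and Y-linked genes highest (0.59).

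The last comparison asked whether footprints differed with the structure of the 5′UTR, the leader that the ribosome scans before the start codon. The folding energy deposited by the authors is lower for a more stable structure. Transcripts with complex 5′UTRs (under -250 kcal/mol, 1150 transcripts) had a median difference of -0.02, and those with simple 5′UTRs (over -20 kcal/mol, 1038) one of 0.00. Across transcripts the rho of folding energy and difference was 0.026, and medians of 10 groups ordered by folding energy lay between -0.02 and 0.01. The sign of rho changed with the library, to -0.069 without the shallower GS LRRK2 TG library and -0.041 without the shallower GS/DA LRRK2 TG library. Given coding length and GC content it was -0.043. For RNA-Seq the rho was 0.126, with medians of -0.06 for complex and 0.07 for simple 5′UTRs. For footprints relative to RNA it was -0.098, with medians of 0.03 and -0.07.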

How the data were processed

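Footprinting and RNA-Seq libraries of striatum were grouped by the genotype in the sample labels. Per the submitters' notes and the study's methods, the authors mapped reads to mm9 with TopHat2 2.0.11 and Bowtie2 2.2.2, with at most 1 mismatch, after CASAVA 1.8, discarded rRNA, counted reads in coding sequences over the isoforms of a gene, dropped transcripts with few reads and normalized with DESeq 1.20 size factors. The deposited signal is the mean of normalized reads over the libraries of a group, without an SD, normalized separately in each table. The authors also deposited folding energies of the 5′UTR in kcal/mol, and TE, TE differences (log2) and z scores, their own comparison, which were not used.

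The 2 transgenic tables were joined on 8576 identifiers, of which 23 symbols are duplicated. Each library adds whole multiples of its own step to such a mean, and its reads were taken where 1 pair of whole numbers fitted. Only pairs whose normalized libraries differed by at most 2 log2 units were searched. Where none fitted and the mean was under 3000, the limit was widened to 8. Abundant transcripts with libraries further apart would therefore be left out. As a check, after adding a constant to all means, 0.257% of transcripts resolved in GS LRRK2 TG and 4.86% in GS/DA LRRK2 TG. All 4 libraries were recovered for 8454 transcripts, and the unrecovered ones have high means. The test was limma 3.58.1 (R 4.3.3) with a mean-variance trend on log2(normalized reads + 10), which understates differences of low transcripts, with Benjamini-Hochberg adjustment over these transcripts and no block. No negative binomial model was run, and limma voom on the recovered reads was an alternative. Nothing in the labels ties a recovered library to a replicate, and libraries are pools of mice, so p-values measure the spread between 2 pools. Depth is the sum of recovered reads. Other steps used Python 3.11.15, numpy 2.4.6, pandas 2.3.3 and scipy 1.17.1, and the recovery and fit were tested on simulated data. Coding length and GC content came from the mm9 annotation for 97.1% of transcripts.

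Named are Lrrk2, the 12 highest and 12 lowest differences among transcripts with no overlap and both deposited means, before scaling, at least 500, the 2 most abundant and 3 most different members of each of 29 gene lists, Y-linked genes, Atf4 and Rps15. Further members were named after their values were seen, because they did not overlap. The members and lists were chosen with earlier results of these data known. Alternatives were pseudocounts of 1 and 50, no trend, voom, library pairs as a block, control libraries in the fit, other scalings, a minimum mean of 500, each library left out, values relative to controls or RNA-Seq, and, for 5′UTRs, 1 transcript per symbol and adjustment for length and GC content. The LRRK2 KO table was not used here. Some genes are not reported here.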

Additional observations from a re-analysis of the deposited data

How the results depend on the processing

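The recovered libraries carry no replicate number, so both pairings were run as a replicate block. Ranked by mapped reads, the deeper library would be the second replicate in both genotypes, which is the pairing of the deeper libraries, but the totals of GS LRRK2 TG are too close to be sure. Limma called 0 transcripts with the deeper libraries paired (18 at an unadjusted p under 0.05). With the deeper paired to the shallower it called 70 (623 unadjusted), and with the control libraries added to that pairing, which was chosen after seeing the data, 0 (681 unadjusted). The cause was not tested. The prior degrees of freedom, which weight the variance shared over transcripts, were 181 with deeper paired to shallower and 4.24 without a block. The block left the Lrrk2 log2 difference at 0.05. With other pseudocounts (40 unadjusted for each), control libraries in the fit (76), a minimum deposited mean of 500 (7), median-of-ratios scaling (39) or total-reads scaling (41), limma called 0.

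With each library left out in turn, the calls ranged from 0 to 58, from fits that assume the lone library varies like the others. The Lrrk2 log2 difference ranged from -0.49 to 0.59, with -0.49 without the shallower GS LRRK2 TG library and -0.25 without the shallower one of GS/DA LRRK2 TG. Relative to each genotype's own control it was -1.14, and the cause was not tested. Transcripts without overlap made up 20.7% with all libraries and 52.0% to 67.2% with 1 left out (higher 26.2% to 33.7%, lower 25.8% to 33.5%), since fewer libraries overlap less. The rho with folding energy ranged from -0.069 to 0.096 with 1 library left out, was -0.098 for footprints relative to RNA and -0.043 given coding length and GC content, and the cause was not tested.

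Lists with a median over 0.1 in size numbered 5 of 29, and 12 to 16 with 1 library left out, 8 relative to controls and 13 relative to RNA. Scalings moved 0 of 29 list medians beyond the spread between libraries. Of the 24 transcripts with the highest and lowest differences, 4 changed sign relative to RNA.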

Other observations

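A pair of transcripts with large differences, chosen after their values were seen, lay side by side on a chromosome (mm9). On chromosome 4, Hdhd3 (62160042 to 62164501) and Alad (62170203 to 62180952) were both lower in GS LRRK2 TG. Hdhd3, a predicted hydrolase, had 107 and 154 footprints in the deeper and shallower GS LRRK2 TG libraries, 226 and 345 in GS/DA LRRK2 TG, and 280.3 and 324 in the controls. The genotypes did not overlap, with a difference of -1.13 and an RNA-Seq difference of -0.92. Their neighbors Prpf4, a splicing factor, and Pole3, a DNA polymerase subunit, had differences of -0.16 and -0.05. The part of strain or line background in these differences was not tested, and since each genotype is 1 line it cannot be told apart from the kinase mutation.

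A few large differences came from 1 library. Alcam, an adhesion molecule of axons, had 12563 footprints in the deeper GS LRRK2 TG library, and 4213, 3796 and 4523 in the shallower one and in the deeper and shallower GS/DA LRRK2 TG libraries. Its controls held 4518 and 5016, so the difference of 1.01 rested on 1 pool, and the RNA-Seq difference was -0.07. Meg3, a noncoding RNA, had 579 in the deeper and 60.6 in the shallower GS LRRK2 TG library against 71.7 and 245 in GS/DA LRRK2 TG, with complete overlap.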
